A study of Arabidopsis thaliana with 42 samples.

Results

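The 10 genes described here encode subunits of the Arabidopsis SWR1 complex and proteins that work with it: PIE1 (AT3G12810), ARP6 (AT3G33520), SEF (AT5G37055), SWC2 (AT2G36740), SWC4 (AT2G47210), ARP4 (AT1G18450), YAF9A (AT5G45600), YAF9B (AT2G18000), RIN1 (AT5G22330) and MBD9 (AT3G01460). They were chosen by locus ID and known membership in the complex or its work, and are 10 of 34262 features in the expression table. SEF is the plant SWC6. RefSeq lists YAF9A as GAS41 and YAF9B as TAF14, and gives no symbol to SWC4.

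SWR1 is a chromatin remodelling complex that uses ATP to replace histone H2A in a nucleosome with the variant H2A.Z. In Arabidopsis, loss of ARP6, PIE1 or SEF makes plants flower early, with low levels of the flowering repressor FLC, and H2A.Z nucleosomes are known for their part in the response to ambient temperature. PIE1 is the ATPase of the complex, and several other subunits also sit in the NuA4 histone acetyltransferase or the INO80 remodeller.

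The RNA came from whole seedlings of the Col-0 ecotype, 14 days old, harvested at ZT-6. The 12 RNA-seq libraries form 6 groups of 2: arp6vil1 at 22 °C, arp6 at 22 °C, vil1 at 27 °C, vil1 at 22 °C, wild type (WT) at 27 °C and WT at 22 °C. The vil1 allele is vil1-1, and the labels name no arp6 allele. VIL1 is a partner of Polycomb repressive complex 2 and carries the gene symbol VRN5. All plants were grown in long days (16 h light) or short days, and the labels do not say which served for RNA. The 30 ChIP-seq samples of the series are not analysed here.

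Levels are in RPKM as the authors deposited them, that is reads per kilobase of gene span, introns included, scaled to the depth of the library. A level is therefore a share of its library, and in whole seedlings fewer cells of a type and less RNA per cell cannot be told apart. Changes are differences of log2(RPKM + 1) from a limma model of all 12 libraries, which understates the change of genes near or below 1 RPKM. A change is called where the p-value adjusted by the Benjamini-Hochberg method over all 31454 features tested is under 0.05, and all 10 genes were tested. Nothing in the labels says that the 2 libraries of a group are separate cultures, so each p-value measures the spread between libraries only. The arp6 and arp6vil1 groups share the WT 22 °C libraries as controls.

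Depth recovered from the table was 52.5 to 102.8 M reads per library. The libraries labelled arp6 and arp6vil1 stood apart from the other 8. The arp6 libraries listed 6651 and 6566 features at 0 and all remaining libraries 104 to 194. In arp6vil1 the median nuclear protein-coding gene had 1.94 and 1.79 RPKM, against 3.34 to 4.97 RPKM in all others, and chloroplast genes took 17.0% and 14.9% of the summed RPKM, against 4.07% to 7.64%. Green-leaf markers summed to 24627 to 29149 RPKM in vil1 and WT at 22 °C and to 14886 to 19940 RPKM in all other libraries. Against WT at 22 °C, 3 of 4 were lower in arp6vil1, in arp6 and in WT at 27 °C. The shares over all features were 61.2%, 61.8% and 3.61%. With each library centred on its median, 3 turned in arp6vil1 and 1 in arp6. Root-cell markers summed to 34.8 to 61.6 RPKM, and no marker was listed at 0. Seed-storage markers summed to 7.68 and 7.41 RPKM in arp6vil1 and 3.19 and 0.152 RPKM in arp6, against 2.92 to 4.88 RPKM in vil1 and WT. All 3 were higher in arp6vil1 than in arp6, as were 41.1% of all features, and 2 of 3 higher than in vil1 at 22 °C (7.16%). Against WT at 22 °C, 0 of 3 were past the threshold in arp6vil1, and 2 were lower in arp6, as were 61.8% of all features. The part of these markers in the values of the 10 genes was not tested.

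ARP6, the actin-related protein whose gene is mutated in 2 of the groups, served as a check of the labels. Its level was 0.798 and 0.715 RPKM in arp6vil1 and 0.398 and 0.207 RPKM in arp6. In vil1 it was 14.1 and 12.1 RPKM at 27 °C and 14.4 and 14.0 RPKM at 22 °C, and in WT 12.2 and 13.5 RPKM at 27 °C and 14.4 and 13.6 RPKM at 22 °C. The mutant libraries lay far below all others, so the ARP6 reads matched the labels. The arp6 values rest on 42 and 21 reads and the arp6vil1 values on 133 and 142 reads, against 2087 and 1621 reads in WT at 22 °C. ARP6 fell by 3.10 (SE 0.107) in arp6vil1 and by 3.53 (SE 0.107) in arp6 against WT (limma, adjusted p = 8.50e-08 and 1.17e-08).

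RNA of VRN5, the second mutated gene, does not check the vil1 label. Its level was 2.49 and 2.49 RPKM in arp6vil1, 5.13 and 5.38 RPKM in vil1 and 6.71 and 6.67 RPKM in WT, all at 22 °C.

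In the 8 WT and vil1 libraries the subunit genes kept a nearly fixed order by RPKM. RPKM here divides by gene span with introns included, so the places of genes also depend on intron length. ARP6 was the highest of the 10 in all 8. YAF9A, which carries the YEATS domain that reads acetylated histones, had 8.11 to 10.1 RPKM. SEF, a zinc-finger subunit, had 6.88 to 10.2 RPKM. RIN1, a RuvB-like ATPase, had 5.52 to 8.19 RPKM. ARP4, the second actin-related protein, followed at 5.0 to 8.53 RPKM. These 4 genes changed places with each other from library to library, so their order did not exceed the spread. SWC4 (3.99 to 5.82 RPKM) was the sixth and SWC2 (2.85 to 4.14 RPKM) the seventh in all 8 libraries. MBD9, the methyl-CpG-binding domain protein that recruits SWR1 to part of its sites, was the eighth throughout, with 2.22 to 3.43 RPKM. YAF9B and PIE1 shared the lowest places, with 1.71 to 2.87 and 1.84 to 2.79 RPKM.

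That order did not hold in the mutants. In arp6 the genes with the most RPKM were RIN1 (10.9 and 8.92) and ARP4 (9.53 and 9.04), and PIE1 was the fourth. In arp6vil1 SEF was the highest in both libraries, at 4.55 and 4.06 RPKM. Summed over the 9 genes other than ARP6, the level was 17.7 and 16.5 RPKM in arp6vil1, 51.4 and 47.3 RPKM in arp6, 44.1 to 47.8 RPKM over the vil1 libraries and 41.6 to 51.9 RPKM over the WT libraries. Both double-mutant libraries lay below all others. The WT libraries at 22 °C, the temperature of arp6, had 41.6 and 46.3 RPKM, and both arp6 libraries lay above both.

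**Figure D1:**
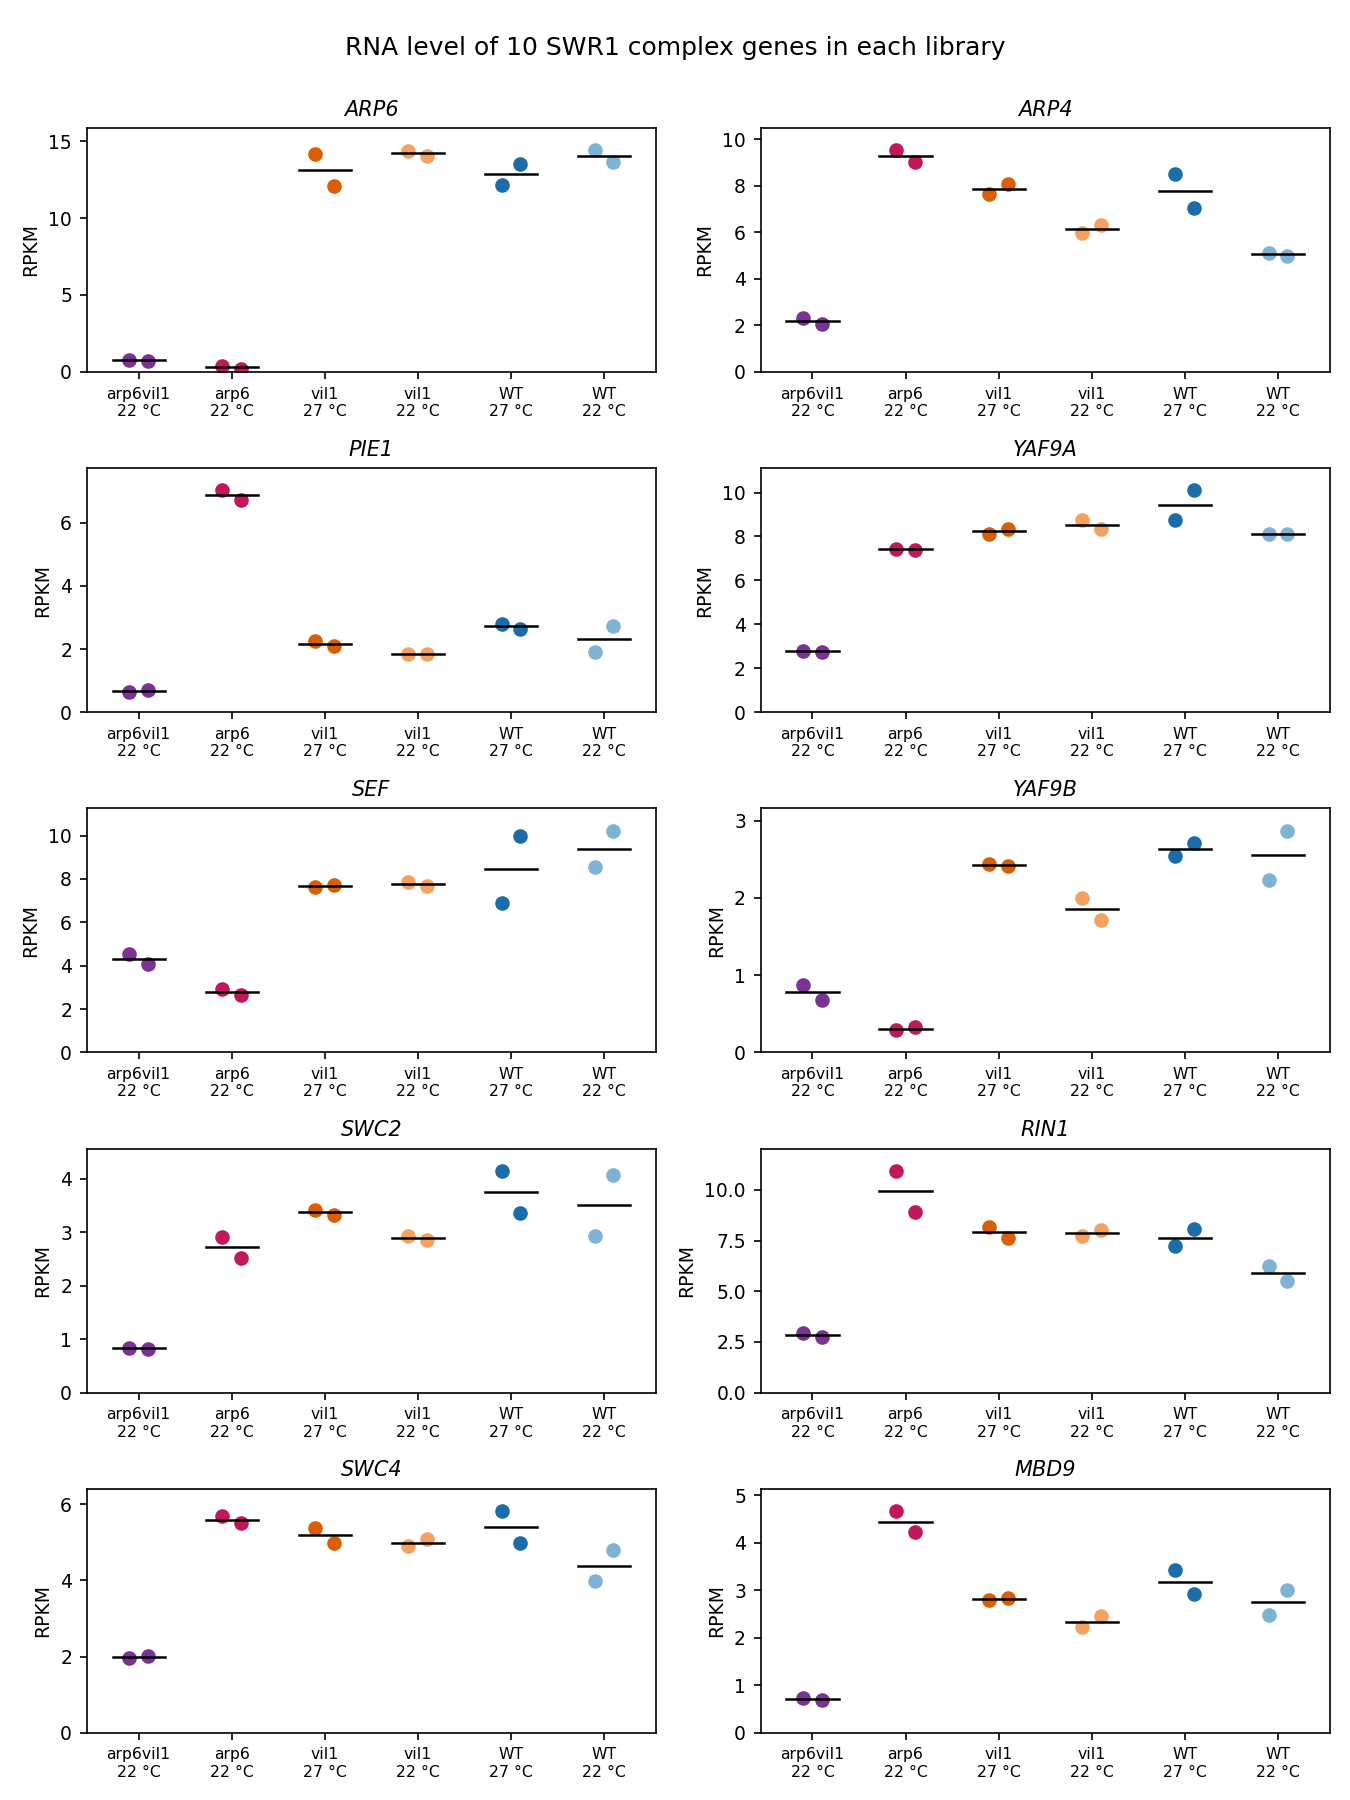
RPKM (vertical axis, from 0) of each of the 10 genes in each of the 12 libraries. Points are libraries, 2 per group, and bars are group means. ARP6 is near 0 in arp6vil1 and arp6, PIE1 stands at 7.03 and 6.72 RPKM in arp6, above every other group, and the arp6vil1 points are the lowest of each panel except for ARP6, SEF and YAF9B, where arp6 is lower.

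In arp6 the other SWR1 genes changed in both directions, and the calls followed gene span. Against WT at 22 °C, PIE1, ARP4, RIN1, MBD9 and SWC4 were higher in arp6, ARP6, SEF and YAF9B were lower, and SWC2 and YAF9A were not past the threshold. That is 8 of 10 called, in a comparison that called 82.3% of all features, 20.6% higher and 61.8% lower. The median change of the 10 genes was 0.09, against -0.64 over all features. Without ARP6, the mutated gene, 5 of the other 9 were higher, 2 lower and 2 not past the threshold, with a median of 0.29. The 5 higher genes have the longest spans of the 10, from 3485 bp (RIN1) to 9265 bp (MBD9). YAF9B (1923 bp) and SEF (1072 bp), which were lower, have the shortest. Over the whole table the median change went from -1.21 in the shortest of 20 span classes to 0.68 in the longest.

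PIE1, the ATPase, had 7.03 and 6.72 RPKM in arp6, against 1.91 and 2.73 RPKM in WT. Both arp6 libraries were above both WT libraries, at a mean 2.97 times as high. The change was 1.26 (SE 0.119, limma adjusted p = 6.11e-06), larger than that of 95.1% of all features tested. PIE1 has a gene span of 9153 bp, longer than 99.5% of genes, and the change in arp6 moved with gene span over the whole table. Features in the longest of 20 span classes had a median change of 0.68, and those in the shortest -1.21. The upper quartile of the longest class was 1.27, so the change of PIE1 lay within the quartiles of its class. With that trend removed from each library, PIE1 was still higher, by 0.36 (adjusted p = 0.00918).

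SEF is the smallest gene of the set, with a span of 1072 bp. It had 2.91 and 2.65 RPKM in arp6, against 8.54 and 10.2 RPKM in WT, on 170 and 149 reads against 686 and 675. The groups did not overlap, and the change was -1.45 (SE 0.145, limma adjusted p = 8.60e-06). Features of its span class had a median of -0.98, and with the trend removed the change of SEF was -0.52 (adjusted p = 0.00188).

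YAF9A and YAF9B are paralogs with the same domain, and they parted in arp6. YAF9B had 0.286 and 0.327 RPKM (30 and 33 reads) in arp6, against 2.23 and 2.87 RPKM (322 and 340 reads) in WT. YAF9A had 7.43 and 7.40 RPKM in arp6, against 8.11 and 8.14 RPKM in WT. YAF9B fell by 1.44 (SE 0.120, limma adjusted p = 2.94e-06), while the change of YAF9A was -0.12 (SE 0.087, adjusted p = 0.233) and turned to 0.26 with each library centred on its median and to 0.37 with the span trend removed. The 2 genes have like spans, 2072 bp for YAF9A and 1923 bp for YAF9B. The ratio of YAF9A to YAF9B was 26 and 22.6 in arp6, against 2.83 to 4.88 in the other 10 libraries.

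ARP4, which SWR1 shares with NuA4 and INO80, had 9.53 and 9.04 RPKM in arp6, against 5.13 and 5.0 RPKM in WT. RIN1, likewise shared with INO80, had 10.9 and 8.92 RPKM in arp6, against 6.25 and 5.52 RPKM in WT. Neither pair of groups overlapped. ARP4 was higher by 0.76 (SE 0.10, limma adjusted p = 5.41e-05) and RIN1 by 0.66 (SE 0.109, adjusted p = 0.000235). Both calls ended when the span trend was removed among features with a mean of 5 RPKM or more, at 0.10 for ARP4 and 0.19 for RIN1.

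MBD9 had 4.67 and 4.22 RPKM in arp6, against 2.48 and 3.01 RPKM in WT, a change of 0.54 (SE 0.108, limma adjusted p = 0.00087). Its span of 9265 bp is the longest of the set, and the direction turned with the span trend removed, to -0.36 (adjusted p = 0.00125). SWC4, a subunit also found in NuA4, had 5.68 and 5.50 RPKM in arp6, against 3.99 and 4.79 RPKM in WT, a change of 0.29 (SE 0.103, limma adjusted p = 0.0208). It turned to -0.07 with the span trend removed, and the call was lost without WT replicate 1 (0.19, adjusted p = 0.135), without arp6 replicate 1 (0.27, adjusted p = 0.084) without arp6 replicate 2 (0.32, adjusted p = 0.0527) and with only these groups in the fit (adjusted p = 0.0857). SWC2, whose yeast relative binds H2A.Z, had 2.91 and 2.52 RPKM in arp6, against 2.93 and 4.07 RPKM in WT. Its change of -0.27 (SE 0.132, limma adjusted p = 0.0824) passed only without WT replicate 1, at -0.45 (adjusted p = 0.00844).

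Centring each library on its median moved the median of all features to -0.27, with 9854 features higher and 14935 lower, against 6466 and 19423 with the deposited scaling. PIE1 (1.63), ARP4 (1.13), RIN1 (1.04) and MBD9 (0.91) were then higher and SEF (-1.08) and YAF9B (-1.07) lower, as with the deposited scaling. Dividing-cell markers summed to 29.96 and 25.5 RPKM in arp6, against 16.5 and 18.5 RPKM in WT at 22 °C. Of the 6 markers 3 were higher, SYP111 the most (1.22), 1 was lower (CDKB1;1, -0.45) and 2 were not past the threshold. The part of these cells, and of the 6651 and 6566 features listed at 0, in the arp6 values was not tested.

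**Figure D2:**
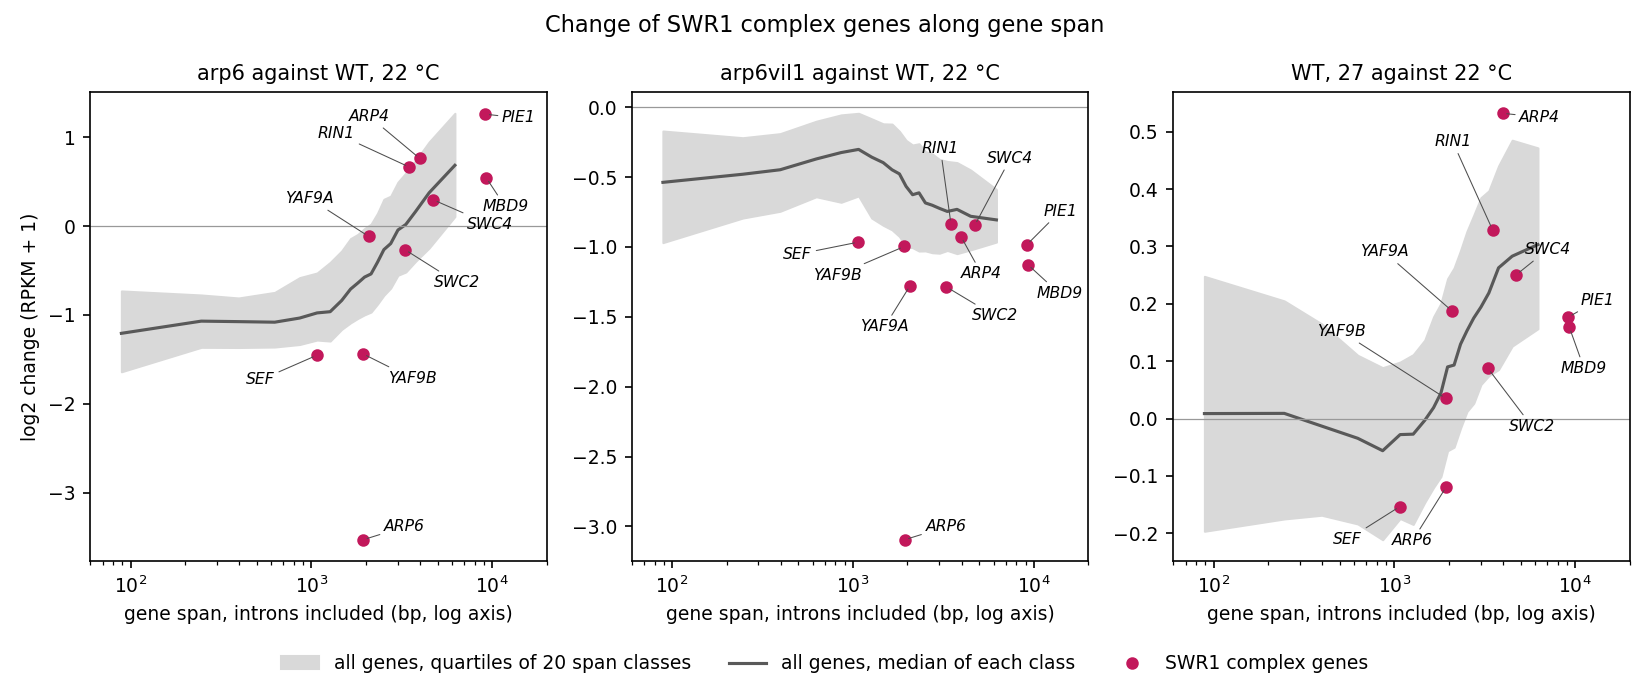
Change of log2(RPKM + 1) (vertical axis, scaled per panel) against gene span in bp (log axis) in arp6 against WT, arp6vil1 against WT and WT at 27 against 22 °C. The line is the median and the band the quartiles of all features in 20 span classes, and points are the 10 genes. In arp6 the line climbs to 0.68 in the longest class and ends at its median span of 6214 bp. PIE1 (1.26) and MBD9 (0.54) belong to that class and are plotted to the right of the line's end. PIE1 is above and MBD9 below the class median, both within its quartiles (0.11 and 1.27). SEF, YAF9B and ARP6 lie under the band.

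In the double mutant all 10 genes were lower than in WT at 22 °C. The comparison called 66.1% of all features, 4.91% higher and 61.2% lower, and the median change was -0.99 for the 10 genes and -0.54 for all features. Apart from ARP6, the mutated gene, all 9 were lower, with a median of -0.98. Their falls ran from -0.84 (RIN1 and SWC4) to -1.29 (SWC2), with adjusted p of 1.35e-06 to 0.000157 (limma).

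YAF9A had 2.80 and 2.73 RPKM in arp6vil1, against 8.11 and 8.14 RPKM in WT, a change of -1.28 (SE 0.087, limma adjusted p = 1.35e-06). SWC2 had 0.835 and 0.822 RPKM in arp6vil1, against 2.93 and 4.07 RPKM in WT, and fell by 1.29 (SE 0.132, adjusted p = 1.10e-05). MBD9 had 0.724 and 0.700 RPKM, against 2.48 and 3.01 RPKM, and fell by 1.13 (SE 0.108, adjusted p = 7.50e-06). These 3 and ARP6 were called lower under every setting tried, including centring on the library median, which moved the median change of all features to 0.30 and gave 14258 features higher and 4466 lower, against 1543 and 19245 with the deposited scaling.

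PIE1 had 0.632 and 0.696 RPKM in arp6vil1, against 1.91 and 2.73 RPKM in WT, and its change of -0.98 (SE 0.119, limma adjusted p = 3.36e-05) shrank to -0.14 with median centring and was no longer called. The calls of SEF (-0.97), SWC4 (-0.84), ARP4 (-0.93), YAF9B (-1.0) and RIN1 (-0.84) also ended with median centring, where SWC4 and RIN1 stood at 0.00 and 0.01. ARP4 had 2.34 and 2.05 RPKM in arp6vil1, against 5.13 and 5.0 RPKM in WT. RIN1 had 2.94 and 2.76 RPKM, against 6.25 and 5.52 RPKM, and SWC4 1.96 and 2.02 RPKM, against 3.99 and 4.79 RPKM. With median centring these 6 genes changed by -0.15 to 0.01. Quantile normalization ended the calls of SEF, SWC4, ARP4 and RIN1, removal of the span trend those of PIE1, SWC4, ARP4 and RIN1, and voom those of SEF and RIN1.

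Part of the set reached the low end of the arp6vil1 libraries. ARP6, PIE1, SWC2, YAF9B and MBD9, 5 of 10, were below the 20th percentile of nuclear protein-coding genes in both arp6vil1 libraries, and no member was in any other library. Their levels were 0.896 to 1.23 times the 10th percentile of their library. The other 5 were nearer to their WT percentile. SWC4 was at 50.2 and 53.1 in arp6vil1, against 50.0 and 52.9 in WT, and SEF at 69.0 and 68.7, against 71.4 and 75.3. In the arp6 libraries the 10th percentile was 0 RPKM, so percentiles there do not compare with those of arp6vil1. ARP6 and YAF9B had fewer RPKM in arp6 than in arp6vil1, yet stood at percentiles 22.3 to 25.8 in arp6.

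Set against arp6, the double mutant had 3 of the 10 genes higher and 7 lower, in a comparison that called 79.1% of all features, 41.1% higher and 38% lower (18549 and 8342 features with median centring, against 12917 and 11964). PIE1 differed most: 0.632 and 0.696 RPKM in arp6vil1, against 7.03 and 6.72 RPKM in arp6, a change of -2.24 (SE 0.119, limma adjusted p = 6.85e-08). It was lower in every setting tried, with changes of -3.19 to -0.53. ARP4 (-1.69), RIN1 (-1.50) and YAF9A (-1.16) were likewise lower in every setting. MBD9 (-1.67) and SWC4 (-1.14) stood at 0.05 and 0.00 with the span trend removed, and the call of SWC2 (-1.02) was then lost.

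SEF had 4.55 and 4.06 RPKM in arp6vil1, against 2.91 and 2.65 RPKM in arp6. YAF9B had 0.868 and 0.683 RPKM in arp6vil1, against 0.286 and 0.327 RPKM in arp6. Both genes were higher in both double-mutant libraries. The changes were 0.49 for SEF (SE 0.145, limma adjusted p = 0.010), 0.44 for YAF9B (SE 0.120, adjusted p = 0.00647) and 0.43 for ARP6 (SE 0.107, adjusted p = 0.00359). SEF turned to -0.06 with the span trend removed, and its call was lost without arp6 replicate 2 (0.44, adjusted p = 0.0558) and without arp6vil1 replicate 1 (0.42, adjusted p = 0.0647). YAF9B turned to -0.27 and ARP6 to -0.29 when each library's 10th percentile was subtracted, and to -0.32 and -0.33 with quantile normalization, and YAF9B lost its call without arp6vil1 replicate 1 (0.37, adjusted p = 0.0556). A pseudocount of 5 ended the calls of ARP6 (0.12, adjusted p = 0.135) and YAF9B (0.12, adjusted p = 0.051), and subtraction of the 10th percentile that of SEF (0.29, adjusted p = 0.109). The ratio of PIE1 to SEF was 0.139 and 0.172 in arp6vil1 and 2.42 and 2.54 in arp6, against 0.223 to 0.406 in the other 8 libraries.

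**Figure D3:**
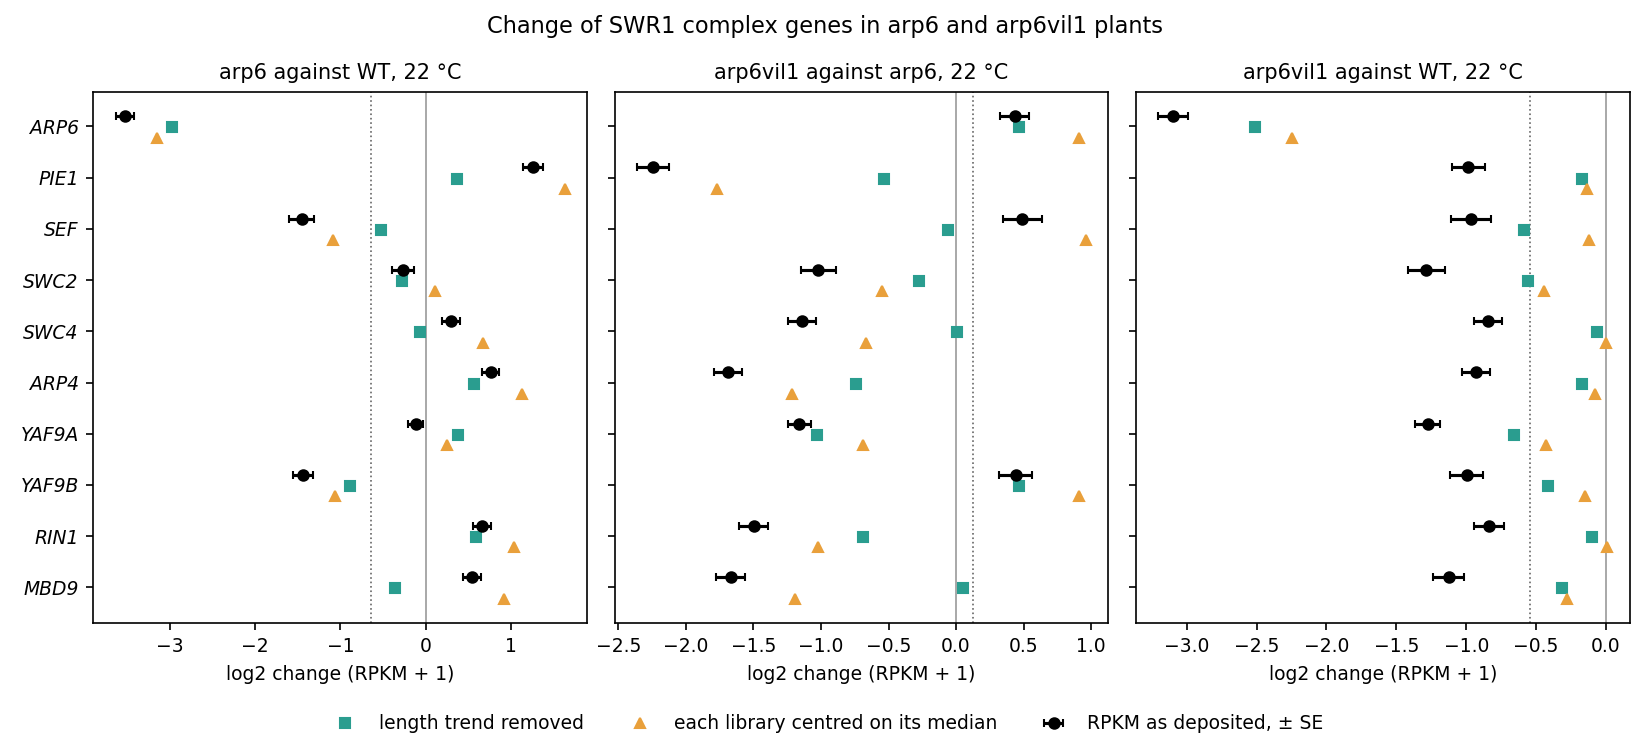
Change of log2(RPKM + 1) (horizontal axis) of each gene in arp6 against WT, arp6vil1 against arp6 and arp6vil1 against WT at 22 °C. Black points are the deposited scaling with SE, squares have the gene span trend removed, triangles have each library centred on its median, and the dotted line is the median of all features. In the right panel the black points lie between -0.84 and -3.10, and 6 of the triangles lie between -0.15 and 0.01.

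Against vil1 at 22 °C, the double mutant again had all 10 genes lower, where 58% of all features were called, 7.16% higher and 50.8% lower. The median was -1.05 for the 10 genes and -0.40 for all features. YAF9A (2.80 and 2.73 RPKM in arp6vil1, 8.73 and 8.35 RPKM in vil1) changed by -1.34 (SE 0.087, limma adjusted p = 9.02e-07), and RIN1 (2.94 and 2.76 RPKM in arp6vil1, 7.71 and 8.00 RPKM in vil1) by -1.20 (SE 0.109, adjusted p = 4.99e-06). SEF (-0.73) and YAF9B (-0.68) had the smallest falls. With median centring they stood at 0.01 and 0.05 and PIE1 at -0.04 (adjusted p = 0.708), while 15345 features were higher and 5841 lower, against 2251 and 15992 with the deposited scaling. With the span trend removed PIE1 turned to 0.07, and the calls of SWC4 (-0.19, adjusted p = 0.0712) and MBD9 (-0.12, adjusted p = 0.195) were lost. The call of SEF was also lost with quantile normalization (-0.03) and by voom (-0.25, adjusted p = 0.150).

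The change that came with arp6 differed between vil1 and WT plants. This interaction, the arp6 change in vil1 plants minus that in WT plants, was called for all 10 genes, 3 higher and 7 lower, where 75.2% of all features were called, 42.5% higher and 32.7% lower (17652 and 8158 features with median centring, against 13362 and 10286). It was largest for PIE1 (-2.03, SE 0.168, limma adjusted p = 2.48e-06), ARP4 (-1.92, SE 0.142, adjusted p = 1.27e-06) and RIN1 (-1.86, SE 0.154, adjusted p = 2.46e-06), which were higher in arp6 than in WT and lower in arp6vil1 than in vil1. For ARP4, RIN1 and YAF9A (-1.22) it was called under every setting. With the span trend removed 4 of 10 stayed called: MBD9 (-1.51) turned to 0.25 and SEF (0.73) to -0.07, and the calls of PIE1 (-0.29, adjusted p = 0.102), SWC2 (-0.08, adjusted p = 0.678), SWC4 (-0.12, adjusted p = 0.396) and ARP6 (0.31, adjusted p = 0.0651) were lost. YAF9B (0.75) turned to -0.21 with quantile normalization and to -0.03 with the 10th percentile subtracted, which also ended the call of SEF (0.50, adjusted p = 0.0585). For ARP6 itself (0.41, adjusted p = 0.0285) the call was lost without WT 22 °C replicate 1 (0.38), either vil1 22 °C replicate (0.43 without replicate 1, 0.40 without replicate 2), arp6 replicate 2 (0.31) or arp6vil1 replicate 1 (0.38), at adjusted p of 0.0601 to 0.111. It was also lost with a pseudocount of 5 (0.10, adjusted p = 0.346), and ARP6 was called in the opposite direction with quantile normalization (-0.35, adjusted p = 0.0337) and stood at -0.34 with the 10th percentile subtracted. The ways in which the arp6 and arp6vil1 libraries stood apart coincide with genotype and cannot be told apart from it in this interaction.

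In WT at 27 against 22 °C, 1 of 10 was called, in a comparison that called 20.6% of all features, 16.9% higher and 3.61% lower (1186 and 3160 features with median centring, against 5328 and 1137). That gene was ARP4, with 8.53 and 7.07 RPKM at 27 °C, against 5.13 and 5.0 RPKM at 22 °C, and a change of 0.53 (SE 0.10, limma adjusted p = 0.00624). The call was lost without the WT 27 °C replicate 1 (0.41, adjusted p = 0.0532), with median centring (0.34, adjusted p = 0.0604), with the span trend removed (0.26, adjusted p = 0.0597), with quantile normalization (0.36, adjusted p = 0.0555) and with only these groups in the fit (adjusted p = 0.0807). RIN1 had 7.25 and 8.05 RPKM at 27 °C, against 6.25 and 5.52 RPKM at 22 °C. Its groups did not overlap, but its change of 0.33 (SE 0.109, adjusted p = 0.0575) was not past the threshold. RIN1 was called in 6 of the 27 other settings. These were a mean of 5 RPKM or more (0.33, adjusted p = 0.0309), nuclear-coding scaling and subtraction of each library's 10th percentile. The others left out WT 22 °C replicate 1 (0.41) or either arp6 library (0.33). ARP6 itself had 12.2 and 13.5 RPKM at 27 °C, against 14.4 and 13.6 RPKM at 22 °C, a change of -0.12 (SE 0.107, adjusted p = 0.531). The other 7 genes changed by -0.15 (SEF) to 0.25 (SWC4), and the median of the 10 was 0.17, against 0.09 over all features. Dividing-cell markers summed to 24.7 and 23.3 RPKM in WT at 27 °C, against 16.5 and 18.5 RPKM at 22 °C, but 1 of the 6 was higher (SYP111, 1.01) and 5 were not past the threshold. Their part in the change of ARP4 was not tested.

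In vil1 plants at 27 against 22 °C, 0 of 10 genes were called by limma or voom. In limma, 1 of the 10 and 5256 of all 31454 features had an unadjusted p under 0.05. Of all features 2.4% were called, 1.94% higher and 0.461% lower (266 and 363 features with median centring, against 610 and 145). ARP4 had 7.63 and 8.06 RPKM at 27 °C, against 5.95 and 6.31 RPKM at 22 °C. The groups did not overlap, and the change was 0.31 (SE 0.10, adjusted p = 0.148). RIN1 had 8.19 and 7.62 RPKM at 27 °C, against 7.71 and 8.00 RPKM at 22 °C, and these overlapped. The difference between the warm responses of vil1 and WT was -0.22 for ARP4 (SE 0.142) and -0.32 for RIN1 (SE 0.154). It was called for 0% of all features and 0 of the 10 genes by limma, and for 0 of both by voom. In limma, 0 of the 10 and 3880 of all features had an unadjusted p under 0.05.

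Between vil1 and WT at 22 °C, 0 of 10 genes were called by limma and 1 (RIN1) by voom. In limma, 3 of the 10 had an unadjusted p under 0.05, as did 9420 of all 31454 features, a like share. Of all features 4.1% were called, 2.15% higher and 1.95% lower (860 and 364 features with median centring, against 677 and 614). RIN1 had 7.71 and 8.00 RPKM in vil1, against 6.25 and 5.52 RPKM in WT. Its change of 0.37 (SE 0.109, adjusted p = 0.0748) was called in 6 of the 27 other settings, among them median centring (0.48, adjusted p = 0.0478) and leaving out WT replicate 1 (0.44, adjusted p = 0.0326). Without that WT library PIE1 (-0.39, adjusted p = 0.0269) and YAF9B (-0.44, adjusted p = 0.0332) were called as well. YAF9B had 2.00 and 1.71 RPKM in vil1, against 2.23 and 2.87 RPKM in WT. At 27 °C, 0 of 10 genes were called by limma or voom. In limma, 0 of the 10 and 4524 of all features had an unadjusted p under 0.05. Of all features 0.922% were called, 0.337% higher and 0.585% lower (275 and 114 features with median centring, against 106 and 184), and the members' changes ran from -0.23 (PIE1) to 0.04 (RIN1).

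**Figure D4:**
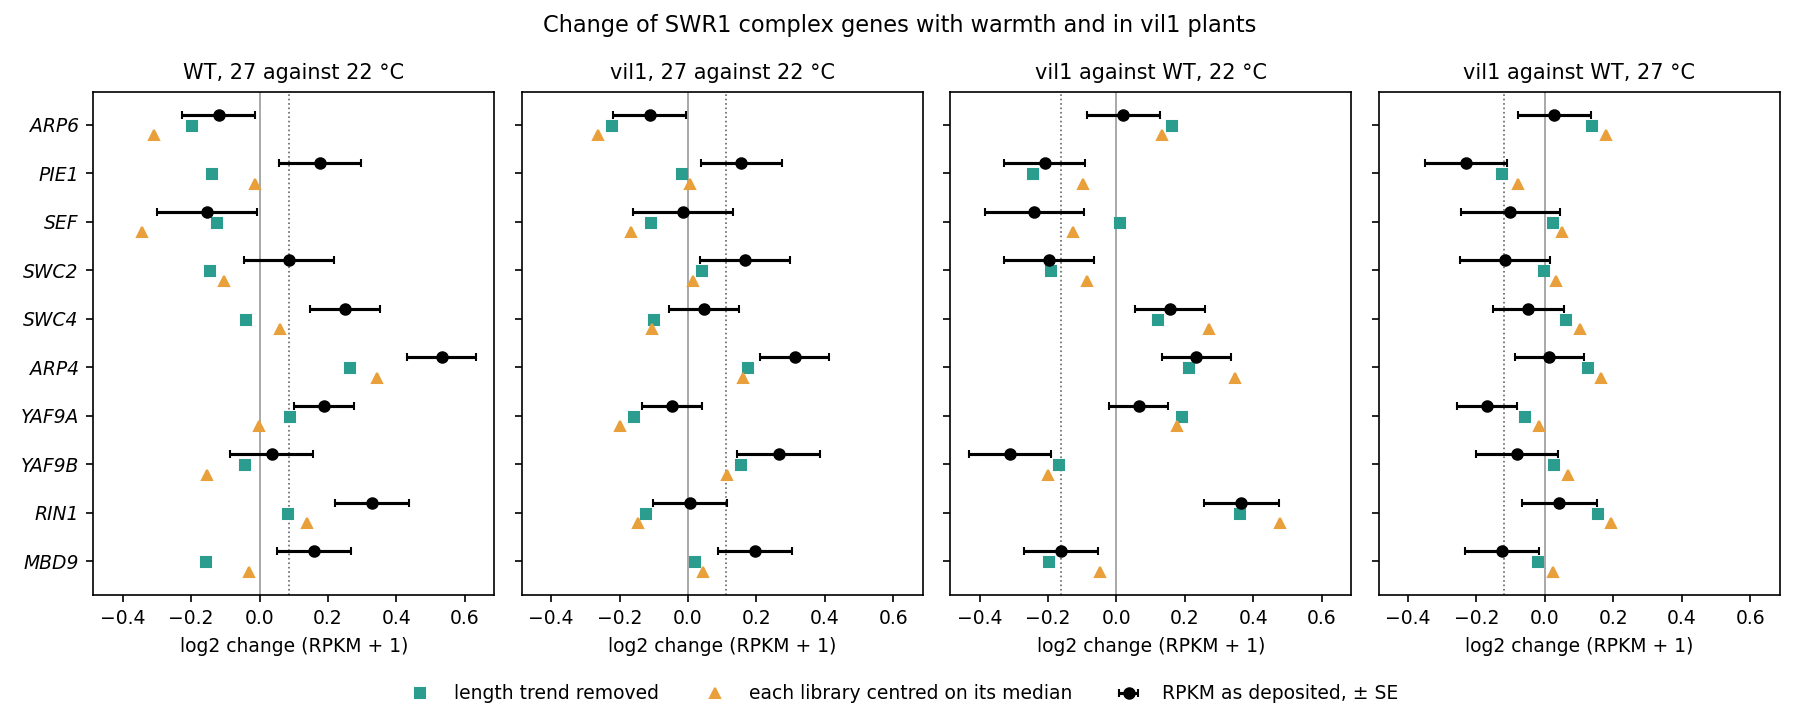
Change of log2(RPKM + 1) (horizontal axis, the same in each panel) of each gene with warmth in WT and in vil1 and between vil1 and WT at each temperature. Black points are the deposited scaling with SE, squares have the gene span trend removed, triangles have each library centred on its median, and the dotted line is the median of all features. The black points lie between -0.31 (YAF9B in vil1 at 22 °C) and 0.53 (ARP4 in WT at 27 °C).

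The partners and targets of the complex, from lists chosen with results of these data known, were read beside the subunits. Their counts stand beside the shares over all features, 20.6% higher and 61.8% lower in arp6 against WT and 4.91% higher and 61.2% lower in arp6vil1 against WT. In WT at 27 against 22 °C the shares were 16.9% higher and 3.61% lower. For vil1 against WT at 22 °C they were 2.15% higher and 1.95% lower. Of 7 other genes reported with SWR1 in plants, 5 were higher and 2 lower in arp6 than in WT. CHR11, an ISWI-type remodeller, rose by 1.90, its paralog CHR17 by 1.19 and AT2G17930 by 1.28 (limma, adjusted p of 1.47e-05 or less with the deposited scaling). With the span trend removed 2 of the 7 turned, AT2G17930 (-0.09) and AT4G36080. In arp6vil1 all 7 were lower than in WT, with a median of -1.03, and 3 of the 7 turned with median centring. In WT at 27 °C, 2 were higher than at 22 °C: AT5G67630 (0.70, adjusted p = 0.00247) and CHR11 (0.52, adjusted p = 0.0307).

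Of the Snf2-type remodellers outside SWR1, all 6 genes examined were higher in arp6 than in WT, with a median of 1.30: BRM (1.79), SYD (1.73) and PKL (1.68) the most. All 6 were lower in arp6vil1 than in WT, with a median of -0.91, SYD turning to 0.13 with median centring. Of 3 genes of INO80, 1 was higher and 1 lower in arp6, and all 3 were lower in arp6vil1, 1 of them turning with median centring. Of 10 genes of NuA4, 3 were higher and 6 lower in arp6, and all 10 were lower in arp6vil1, where 3 and 2 turned with median centring, and the 6 of 10 lower in arp6 are near the share over all features. Of 6 other actin-related proteins, 1 was lower in arp6 (ARP2, -0.39) and all 6 in arp6vil1, 1 of them turning with median centring. ARP5 is counted in both this list and that of INO80.

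HTA9, the H2A.Z gene with the most RNA here, had 154 and 138 RPKM in arp6vil1, and 58.7 and 52.3 RPKM in arp6. In vil1 it had 66.9 and 64.3 RPKM at 27 °C and 81.0 and 74.8 RPKM at 22 °C, and in WT 55.4 and 63.6 RPKM at 27 °C and 87.1 and 96.2 RPKM at 22 °C. The arp6vil1 libraries were above all others. It was higher in arp6vil1 (0.67, SE 0.106, limma adjusted p = 0.000235) and lower in arp6 (-0.71, SE 0.106, adjusted p = 0.000117) than in WT, the fall in arp6 turning to 0.15 with the span trend removed. In WT at 27 °C it was lower than at 22 °C, with a change of -0.62 (adjusted p = 0.00456). Of the 4 H2A.Z genes, HTA4 fell as well in arp6vil1 (-1.13), arp6 (-0.97), vil1 at 22 °C (-0.75) and WT at 27 °C (-0.58), and the other 2 H2A.Z genes were past the threshold in none of these.

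Histone chaperones of the NAP1 family, which bind histones H2A and H2B, were called in the same direction as ARP4. All 5 were higher in arp6 than in WT, NAP1;1 by 2.05 and NAP1;2 by 1.90, and all 5 were lower in arp6vil1. All 5 were also higher in WT at 27 than at 22 °C, as were 16.9% of all features. NAP1;1 rose by 1.16, NAP1;2 by 1.12, NRP1 by 1.08 and NRP2 by 0.70.

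FLC, the flowering repressor that needs SWR1, had 2.47 and 2.25 RPKM in arp6vil1, 0.187 and 0.232 RPKM in arp6 and 4.47 and 4.75 RPKM in WT at 22 °C. It was lower than in WT in both mutants, with changes of -0.74 (SE 0.096, limma adjusted p = 5.57e-05) in arp6vil1 and -2.21 (SE 0.096, adjusted p = 6.82e-08) in arp6, and the arp6vil1 value turned to 0.11 with median centring. Of its 6-gene clade, 5 were lower and 1 (AGL31, the MAF2 gene) higher in arp6, and all 6 were lower in arp6vil1, 4 of them turning with median centring.

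Finally, the mean profile of the 9 genes other than ARP6 was compared with the rest of the table. Each of the 9 is part of that mean, which raises its own correlation with it. Over the 12 libraries, YAF9A (r = 0.980), SWC2 (0.974) and SWC4 (0.970) followed the mean of the 9 most closely, and SEF (0.405) and YAF9B (0.471) the least. Of 6071 genes with a mean of 5 RPKM or more, those most like it with a symbol were RBL (0.996), NF-YC10 (0.995), TRM27 (0.994), Hrd1A (0.994) and PAD2 (0.993). Over the 8 WT and vil1 libraries alone the list became LAZ1 (0.968), REP (0.968), NF-YC10 (0.963), MAG1 (0.963) and SDG40 (0.962). NF-YC10 was in both lists. In those 8 libraries PIE1 (0.881) and MBD9 (0.872) followed the mean of the 9 most closely. RIN1 (0.183) and SEF (0.084) followed it the least, and YAF9A stood at 0.524. These are Pearson correlations across libraries that share depth and scaling within each library, given as a description.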

How the data were processed

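The authors deposited 1 table of RPKM for 34262 features in the 12 RNA-seq libraries. Per the submitters' processing notes, FastQC, HISAT2, Bowtie2, SAMtools, bedtools and edgeR were used with TAIR10, with no role given for each tool. RPKM times RefSeq TAIR10.1 gene span gave whole reads (tolerance 0.02) for 99.94% to 99.95% of values, so RPKM is per gene span, and depths come from this step. TAIR10.1 coordinates are not printed, and sequences were not used here. Overlapping genes cover 613 bp (13.0%) of SWC4, 340 bp of PIE1, 59 bp of MBD9 and 15 bp of ARP6, and the strand used in counting is not given in the sources used here.

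In R 4.3.3, limma 3.58.1 fitted log2(RPKM + 1), 1 mean per group over all 12 libraries with a variance trend, on the 31454 features that reached 1 RPKM in 2 or more libraries. The script was tested on simulated data. Contrasts compared temperatures, genotypes and their interactions. Alternatives were other pseudocounts and filters, quantile, median and nuclear-coding scaling, a gene span trend removed (lowess, span 0.3), voom on recovered reads, no variance trend, own groups only, a replicate block and leaving out each library. Subtraction of each library's 10th percentile, span trend removal at a mean of 5 RPKM or more and leaving out all arp6 and arp6vil1 libraries were added after seeing the data. All 10 genes are named throughout. Of other lists, called genes with the largest changes are named, at most 4 per list and comparison. The 10 genes and all lists were chosen with earlier results of these data known. The 2 libraries of each group differed by more than sampling noise, with 11.7 to 133 as chi-square per gene. Same-numbered libraries of different groups deviated together in 1 of 15 pairs of groups (correlation over 0.1, range -0.25 to 0.22), so the numbers were not taken to pair libraries.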

Additional observations from a re-analysis of the deposited data

Results flagged for a closer look

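With the deposited scaling, limma called the interaction in log2(RPKM + 1) for all 10 genes. The difference that came with arp6 was there not the same in vil1 and WT plants. The interaction was negative for PIE1 (-2.03), ARP4 (-1.92), RIN1 (-1.86), MBD9 (-1.51), SWC4 (-1.30), YAF9A (-1.22) and SWC2 (-0.82), whose level in arp6vil1 was below that in arp6. It was positive for YAF9B (0.75), SEF (0.73) and ARP6 (0.41), the genes that were lower in arp6 than in WT. The test called 75.2% of all features, with a median of 0.30, and the median of the 10 genes was -1.26. With the span trend removed 6 of the 10 calls were lost, MBD9 and SEF turning, and ARP6 and YAF9B turned with quantile normalization (-0.35 and -0.21) and with the 10th percentile subtracted (-0.34 and -0.03). Dividing-cell markers summed to 13.7 and 12.3 RPKM in arp6vil1 and 29.96 and 25.5 RPKM in arp6, against 17.0 and 17.7 RPKM in vil1 and 16.5 and 18.5 RPKM in WT, all at 22 °C. Of the 6 markers the interaction was negative for 3, SYP111 the most (-2.14), positive for 1 (CDKB1;1, 0.70) and not past the threshold for 2. Their part in the interaction of the 10 genes was not tested. The arp6 libraries listed 6651 and 6566 features at 0, and in arp6vil1 the median nuclear protein-coding gene had 1.94 and 1.79 RPKM. These traits of the libraries coincide with genotype and cannot be told apart from it.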

How the results depend on the processing

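Counts below are of the 10 genes called. At a mean of 5 RPKM or more only 5 of the 10 were tested, which gave 2 for WT at 27 against 22 °C, 1 for vil1 against WT at 22 °C, 4 for arp6 against WT and 5 for arp6vil1 against WT, arp6 and vil1 and for the interaction. With the span trend also removed there, the counts were 0 for WT at 27 against 22 °C, 2 for arp6 against WT, 4 for arp6vil1 against WT and against arp6 and for the interaction, and 5 for arp6vil1 against vil1. Span trend removal over all features gave 0 in WT warmth, 6 for arp6vil1 against WT and against arp6, and 4 for the interaction. Median centring gave 0 in WT warmth, 1 for vil1 against WT at 22 °C and 4 for arp6vil1 against WT, where quantile normalization gave 6. Nuclear-coding scaling gave 4 in WT warmth. For vil1 against WT at 22 °C it gave 1, as did voom and background subtraction, which gave 2 in WT warmth. Own groups only gave 0 there. Leaving out 1 library gave 0 to 2 in WT warmth and 0 to 3 for vil1 against WT at 22 °C.

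The replicate block changed no count of the 10 genes: 1 in WT warmth, 8 for arp6 against WT, and 10 for each arp6vil1 comparison.

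Over the whole table, calls in WT warmth numbered 6465, against 1290 with own groups only and 2062 at the fewest with 1 library left out. For vil1 warmth they numbered 755, against 2088 with own groups only, 605 by voom and 149 to 1307 with 1 library left out. For vil1 against WT at 22 °C they numbered 1291, against 57 with own groups only, 2328 by voom and 30 to 8941 with 1 library left out, and at 27 °C 290, against 120 to 536 and 62 to 466. The difference in warm response had 0 calls, and 0 to 1812 with 1 library left out. For arp6 against WT, calls numbered 25889, against 10190 with the span trend removed at a mean of 5 RPKM or more, and the 4 arp6vil1 comparisons fell likewise, to 8654 to 10575 features.

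Directions turned as follows. In arp6vil1 against arp6, ARP6 was -0.33 (quantile) and -0.29 (background subtracted), YAF9B -0.32 and -0.27, and with the span trend removed SEF was -0.062, SWC4 0.0036 and MBD9 0.051. In the interaction, ARP6 was -0.35 and -0.34, YAF9B -0.21 and -0.029, and with the span trend removed SEF was -0.072 and MBD9 0.25. In arp6 against WT, YAF9A was 0.26 (median centring), 0.37 (span trend) and 0.38 (voom), and with the span trend removed SWC4 was -0.070 and MBD9 -0.36. With median centring, SWC4 (0.00079) and RIN1 (0.0096) turned in arp6vil1 against WT, and SEF (0.0074) and YAF9B (0.048) in arp6vil1 against vil1. PIE1 stood there at 0.074 with the span trend removed. The causes were not tested.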
